A study of Mus musculus with 8 samples.

Results

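The regions described here are stretches of open chromatin in the emptiest parts of the mouse genome that were not called in every library. Chromosomes 1 to 19 were divided into 1 Mb windows, and a window counted as gene-poor when it held the midpoint of at most 2 protein-coding genes. Overlapping peaks of the 8 libraries were merged into 76751 regions, of which 75252 lay on chromosomes 1 to 19 and 5771 of those, or 7.67%, had their midpoint in a gene-poor window. The members are the 3950 of these 5771 that were missing from at least 1 library, and the other 1821 were called in all 8. The members were chosen by these peak calls, so counts of calls among them are a description and carry no test. At the edges of the rule, windows with 2 genes held 2853 regions, 1909 of them members, while windows with 3 genes held 3040 regions with 1978 not called everywhere. Gene-poor regions called in 7 libraries numbered 341.

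Accessibility was measured by ATAC-seq, in which a transposase inserts sequencing adapters into open DNA, in macrophages grown from mouse bone marrow for 7 days. There were 4 groups of 2 libraries each: wild type (WT) untreated, WT with lipopolysaccharide (LPS) for 6 h, Lamin-A KO untreated, and Lamin-A KO with LPS for 6 h. The series asks how LPS changes chromatin accessibility and what part Lamin-A plays. All cells were frozen and thawed before the assay. The labels give no strain, age, LPS dose, deleted exon or Cre driver, and leave unsaid if the 2 libraries of a group had different animals as their source, so p-values measure only the spread between samples that may be technical replicates. Source names of LPS samples include both LPS and untreated; grouping followed the titles. As a check of the labelled cell type, all 10 listed macrophage genes, Adgre1, Csf1r and Spi1 among them, had a region called in all 8 libraries within 1 kb. The same held for 1 of 5 B cell, 1 of 6 T and NK cell, 2 of 6 neutrophil, 3 of 4 dendritic cell, 2 of 5 erythroid and megakaryocyte and 4 of 5 stromal and endothelial genes. An accessible site does not show expression.

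Gene-poor stretches of mammalian chromosomes tend to lie against the nuclear lamina, the protein mesh under the inner nuclear membrane, where chromatin is mostly compact and silent. Lamin A and lamin C, both encoded by Lmna, are parts of that mesh. LPS, a cell wall component of Gram-negative bacteria, binds TLR4 on macrophages and activates NF-kB, AP-1 and interferon regulatory factors, which open enhancers that can lie far from the genes they act on. Gene-poor windows also hold long genes and the distant enhancers of developmental regulators, so a region there can be inside a gene or very far from one.

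Few members lay at gene starts: 96 of the 3950 overlapped a promoter window, here the 250 bases before a RefSeq start, of 101 genes, 55 of them protein-coding. Sequences came from RefSeq (GRCm38.p6), in which 79.6% of the protein-coding genes of chromosomes 1 to 19 had an entry. Of these 96 members 5 were called in all 4 LPS libraries and in no untreated one, and 5 the other way round. Of all autosomal regions not called in all 8 libraries, 8.15% were called the first way and 3.02% the second. The sequences shown are the promoter with the strongest member, Bank1, a B cell adaptor protein gene, and 5 whose member divided the LPS from the untreated libraries. These 5 are the protein-coding starts, Rapgef5 and Fat3, and the lncRNA starts that held AP-1 letters, picked after the matches were known. Each is the strand of the gene, 5′ to 3′, and capitals mark letters of a searched motif.
Bank1, chr3:136326067-136326316, minus strand, interferon element and C/EBP letters: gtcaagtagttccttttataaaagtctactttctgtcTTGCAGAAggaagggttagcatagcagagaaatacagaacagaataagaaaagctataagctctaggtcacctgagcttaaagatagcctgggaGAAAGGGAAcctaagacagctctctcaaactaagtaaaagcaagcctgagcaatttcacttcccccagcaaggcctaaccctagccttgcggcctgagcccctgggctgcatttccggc
Sox5os3, chr6:144672618-144672867, plus strand, AP-1 letters: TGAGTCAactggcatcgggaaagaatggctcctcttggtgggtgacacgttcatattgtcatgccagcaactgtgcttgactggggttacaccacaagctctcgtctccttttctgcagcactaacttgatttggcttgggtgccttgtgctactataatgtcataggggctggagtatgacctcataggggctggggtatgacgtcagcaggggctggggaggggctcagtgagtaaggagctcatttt
Gm33624, chr10:119001196-119001445, minus strand, AP-1 letters: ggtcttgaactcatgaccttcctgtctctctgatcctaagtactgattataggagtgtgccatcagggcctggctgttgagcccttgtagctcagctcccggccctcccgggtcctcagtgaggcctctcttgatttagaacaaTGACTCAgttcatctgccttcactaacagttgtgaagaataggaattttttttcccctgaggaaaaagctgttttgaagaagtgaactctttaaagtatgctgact
A530046M15Rik, chr13:15806993-15807242, plus strand, AP-1 and C/EBP letters: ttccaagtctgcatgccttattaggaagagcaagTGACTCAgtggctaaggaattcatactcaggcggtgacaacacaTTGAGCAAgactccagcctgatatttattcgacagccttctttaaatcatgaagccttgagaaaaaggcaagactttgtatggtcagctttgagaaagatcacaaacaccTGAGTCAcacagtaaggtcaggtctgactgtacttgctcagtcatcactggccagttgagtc
Rapgef5, chr12:117516276-117516525, plus strand, PU.1 letters: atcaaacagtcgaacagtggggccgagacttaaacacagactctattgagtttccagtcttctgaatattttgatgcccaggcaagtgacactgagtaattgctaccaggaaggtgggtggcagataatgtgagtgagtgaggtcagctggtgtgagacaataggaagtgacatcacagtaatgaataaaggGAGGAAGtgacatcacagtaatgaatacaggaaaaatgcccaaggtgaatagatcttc
Fat3, chr9:16502055-16502304, minus strand, no searched letters: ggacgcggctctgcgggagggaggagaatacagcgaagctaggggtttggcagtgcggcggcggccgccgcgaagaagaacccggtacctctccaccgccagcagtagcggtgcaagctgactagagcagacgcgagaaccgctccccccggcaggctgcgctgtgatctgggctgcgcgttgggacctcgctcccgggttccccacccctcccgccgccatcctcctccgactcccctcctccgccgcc

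The letters searched on both strands were GAGGAAG for PU.1, the lineage factor of macrophages, TGANTCA for AP-1, GAAANNGAA for the interferon response element, GGGANTTTC for NF-kB and TTGCNNAA for C/EBP. PU.1 letters stood in 17.4% of the 109 promoter windows that overlapped a member, against 10.7% of all 31365 windows of the same length. The interferon element letters stood in 11.01% against 7.14%, C/EBP in 10.1% against 9.66%, AP-1 in 5.50% against 6.77%, and NF-kB in 0% against 0.956%. A match is a description of letters and not a bound site. A library's own scale for a peak is its percentile, the rank of its −log10 p within that library's list from 0 to 100. At the Bank1 start the percentiles were 68.8 and 71.6 in WT untreated and 70.2 and 66.2 in KO untreated libraries, 13.7 in WT LPS replicate 2, and no peak was called in the other 3 LPS libraries. At the Sox5os3 start they were 54.8 and 42.5 in WT LPS and 39.0 and 51.1 in KO LPS libraries, with none called untreated. Rapgef5, which encodes an exchange factor for Rap GTPases, had 19.5, 26.2, 18.1 and 32.9 in the LPS libraries in the same order. The start of Fat3, an atypical cadherin gene, was called only without LPS, at 13.3 and 34.1 in WT and 2.26 and 6.84 in KO. The Bank1 start was thus high in all 4 untreated libraries. The number of lncRNA starts called with LPS among those shown follows from how they were picked. Among lncRNA starts not shown, Gm46758 was also called only with LPS, and Gm31482 and Gm31661 only without it.

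Total peaks per library ranged from 44504 to 59750, and the KO lists were shorter than the WT lists in both treatments. Members called numbered 1688 and 1769 in WT untreated, 2269 and 1943 in WT LPS, 1006 and 1247 in KO untreated, and 1640 and 1302 in KO LPS replicates 1 and 2. LPS libraries had more members than untreated libraries of the same genotype, with no overlap, and KO had fewer than WT at each treatment. As a share of the 3950 members the calls made 42.7, 44.8, 57.4, 49.2, 25.5, 31.6, 41.5 and 33.0% in the same order. The regions outside gene-poor windows that were likewise not called everywhere were present at 49.1, 51.9, 61.5, 52.2, 27.9, 33.5, 38.3 and 28.9%. Members were therefore present less often than those regions in all 6 other libraries and more often in both KO LPS libraries. Their share of all calls in regions not called everywhere was 9.48 and 9.93% in KO LPS and between 7.69 and 8.34% in the other libraries.

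The members' own presence could not be tested, but all peaks of gene-poor windows, including those called everywhere, could be compared across libraries. Gene-poor windows held 6.71 and 6.70% of autosomal peaks in WT untreated, 7.04 and 6.98% in WT LPS, 6.55 and 6.69% in KO untreated, and 7.21 and 7.13% in KO LPS libraries. All 4 LPS libraries lay above all 4 untreated libraries, at 7.09 ± 0.101% against 6.66 ± 0.0749% (SD, n = 4 each). The difference of 0.430 percentage points had p = 0.0556 in an exact two-sided permutation test within genotype, the smallest value the 36 arrangements allow, and 0.0833 after Benjamini-Hochberg adjustment over 9 tests. No test of this design could reach 0.05. KO and WT libraries overlapped, with a difference of 0.0400 points (exact permutation p = 0.611), and that difference had the opposite sign, −0.0812, when only peaks with −log10 p of at least 20 were kept. The LPS difference was larger in KO than in WT by 0.240 points, which did not pass the same exact test (p = 0.500, adjusted 0.563). In numbers, gene-poor windows held 371 more peaks with LPS, and the difference of KO minus WT was −600.25 (exact permutation p = 0.0556 for both); with every list cut to its 44504 strongest peaks the LPS difference became 187 and that of KO minus WT 79.3. Peaks in these windows were also 13.5 bp narrower with LPS and 12.5 bp narrower in KO at the median (exact permutation p = 0.0556 for both). With equal numbers of peaks these width differences were −8 bp (exact permutation p = 0.222) and −42.5 bp. The median percentile of these peaks differed by 1.03 points for LPS minus untreated (exact permutation p = 0.111). For KO minus WT it differed by −1.24 points (exact permutation p = 0.0556), and by −0.662 (p = 0.278) with equal numbers of peaks. Width and percentile were not measured outside gene-poor windows, so these differences are not shown to be particular to them.

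**Figure D1:**
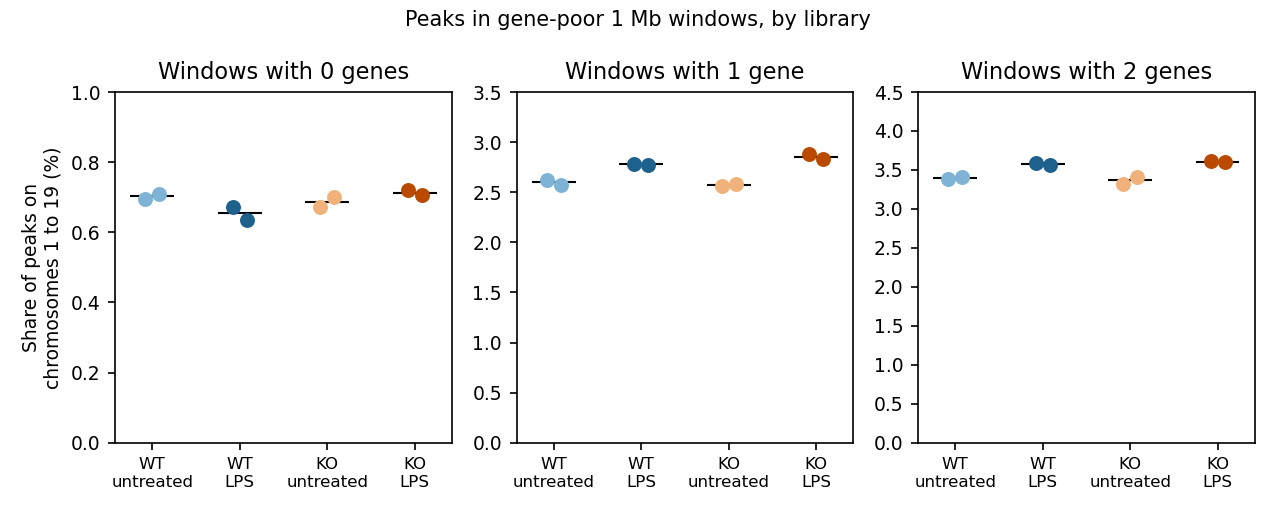
Share of each library's peaks on chromosomes 1 to 19 (%, y axis) in 1 Mb windows with 0, 1 or 2 protein-coding genes, for the 4 groups (points are libraries, lines are means of 2). The LPS libraries lie above the untreated ones for 1 and 2 genes and overlap with them for 0 genes.

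The higher share with LPS was seen in windows that held a gene. Windows with 1 gene held 2.82% of peaks with LPS and 2.58% without, at 2.78 to 2.88% against 2.56 to 2.63%. Windows with 2 genes held 3.59% and 3.38%, at 3.57 to 3.61% against 3.32 to 3.41%. Windows with 0 genes held 0.683% and 0.695%, and these libraries overlapped, at 0.635 to 0.720% against 0.673 to 0.710%. In windows with 0 genes both WT LPS libraries, at 0.672 and 0.635%, were below both WT untreated ones, at 0.696 and 0.710%, while both KO LPS libraries, at 0.720 and 0.706%, were above both KO untreated ones, at 0.673 and 0.7001%. The share was also higher with LPS in the neighbouring class of 3 to 5 genes, at 14.3 to 14.6% against 13.8 to 14.0%, so it was not particular to gene-poor windows. These shares by gene number were not tested.

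Gained stands for a member that both libraries of 1 group called and no library of its comparison group called, and lost for the reverse. In WT cells 756 members were gained with LPS, 19.1% of members, where 17% of all autosomal regions not called in all 8 libraries were gained. There were 393 lost members, 9.95%, against 10.1% of those regions. In KO cells 646 members were gained with LPS, 16.4% against 13.5%, and 345 were lost, 8.73% against 9.31%. Across genotypes 406 members were called in all 4 LPS libraries and no untreated one, 10.3% against 8.15%, and 119 the other way round, 3.01% against 3.02%. The members thus exceeded the background in LPS gains, also under every alternative tried for these 3 counts, and lay near it in LPS losses. Regions in windows with 3 to 5 genes were gained at similar shares, 20.2% in WT, 16.2% in KO and 10.3% in both. The excess was therefore not particular to gene-poor windows. In windows with 0 genes the gained share was 13.2% in WT, below the background, and 13.2% in KO, close to its background of 13.5%. With −log10 p of at least 20 these shares were 17.9% in WT and 18.9% in KO. Outside gene-poor windows they were 17.0% and 13.3% at that setting, so the lower share did not hold there. The WT losses became 650, 604 and 605 without WT untreated replicate 1, WT untreated replicate 2 or WT LPS replicate 1. The KO gains became 1016 without KO LPS replicate 2, the KO losses 645 without KO untreated replicate 1 and 543 when KO LPS replicate 1 was left out, and the losses shared by both genotypes 179 without KO untreated replicate 1. With 1 library fewer, fewer calls have to line up.

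The WT and KO comparisons share no library, so their member lists can be set side by side. The 406 members gained in both were 53.7% of the WT list and 62.8% of the KO list, against 47.3% and 60.1% outside gene-poor windows. The 119 lost in both were 30.3% and 34.5%, close to the 30.0% and 32.2% there. Of the 756 members gained in WT, both KO LPS libraries called 461 (61.0%) and neither called 149 (19.7%). Outside gene-poor windows those shares of the WT gains were 53.9% and 25.3%. Of the 646 members gained in KO, both WT LPS libraries called 550 (85.1%) and neither called 49 (7.59%), against 86.9% and 4.73% outside gene-poor windows. These differences in share were not tested.

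**Figure D2:**
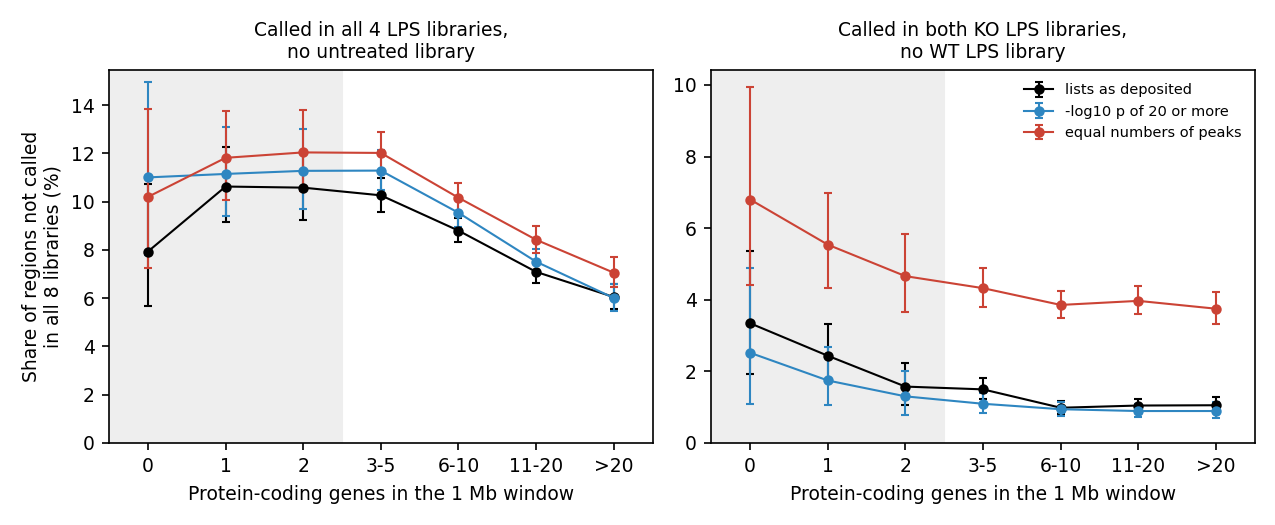
Regions not called in all 8 libraries (%, y axis) that were called only with LPS (left) or only in KO after LPS (right), by protein-coding genes in the 1 Mb window; grey marks gene-poor windows, bars are exact 95% binomial intervals, and colours are the deposited lists and 2 alternatives. In the deposited lists LPS gains go from 10.6% at 1 gene to 6.05% above 20 genes, and KO gains from 3.34% at 0 genes to 1.05% above 20.

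Along the scale of gene number, LPS gains shared by both genotypes made up 7.93% of the not-everywhere regions in windows with 0 genes, 10.6% with 1, 10.6% with 2, 10.3% with 3 to 5, 8.80% with 6 to 10, 7.09% with 11 to 20 and 6.05% above 20. The exact 95% binomial intervals were 5.67 to 10.7% for 0 genes and 5.55 to 6.57% above 20; these intervals treat regions as separate counts and cover counting error only. The share at 0 genes was 11.01% with −log10 p of at least 20 and 10.2% with equal numbers of peaks, against 11.1% and 11.8% at 1 gene under the same settings. The lower share at 0 genes was thus smaller with equal numbers of peaks and nearly absent among stronger peaks. LPS losses showed no such slope, at 3.76, 2.69, 3.09, 3.37, 2.95, 3.02 and 2.82% in the same order.

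Ranked by mean percentile over only the libraries that called them, the 3 highest members were LPS gains. That rank lowers a member that also has weak untreated calls. Regions near Inhba and inside Alcam, described below, stood at 93.1 to 98.2 in LPS libraries but had means of 69.7 and 69.4. A region inside Slco3a1, an organic anion transporter gene (chr7:74527581-74528130), reached percentiles of 97.0 and 96.0 in WT LPS and 95.0 and 95.3 in KO LPS libraries, with a mean fold enrichment over local background of 12.5 as the authors' peak caller gave it. One inside Lpp, a focal adhesion protein gene (chr16:24506696-24507232), reached 92.9, 91.8, 86.9 and 92.2. Another, 652 kb from the nearest coding gene, Tbl1xr1, within a lncRNA and in a window with 0 genes (chr3:21423819-21424375), reached 90.2, 91.6, 89.2 and 83.8. All 3 were absent from the 4 untreated lists, although they stood in the upper part of every LPS list.

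The strongest losses had lower percentiles. A region inside Fat3 (chr9:16305463-16305907) stood at 72.6 and 74.3 in WT untreated and 65.0 and 60.4 in KO untreated libraries and was absent from all LPS lists. Together with the Fat3 start shown above, 2 members of this gene followed that pattern. A region inside Dmxl1, which encodes a regulator of the vacuolar proton pump, stood at 70.2, 70.0, 61.7 and 67.2, and one 397 kb from Gm36718 at 63.1, 64.5, 61.3 and 59.7. Over all LPS gains shared by both genotypes the median width was 400 bp and the median percentile 38.2. Shared losses had 369 bp and 28.6, and all members 320 bp and 19.4.

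Members were spread unevenly. Of 809 gene-poor windows 468 held a member and 341 none, while 60 windows with at least 20 members held 1840 of them, or 46.6%. The most filled window, on chromosome 16 from 24 Mb with Lpp as its only gene and Bcl6, a transcriptional repressor, next to it, held 64 members. Its libraries called 14 and 12 of them in WT untreated, 46 and 44 in WT LPS, 4 and 9 in KO untreated and 33 and 36 in KO LPS. There 24 members were gained and 3 lost with LPS in WT, and 21 and 2 in KO. The window of Nr3c1, the glucocorticoid receptor gene, held 58 members, called as 20 and 19, 42 and 40, 6 and 14, and 33 and 29 in the same order. The Jarid2 window, named for a Polycomb cofactor gene, held 56, called as 19 and 21, 41 and 30, 12 and 9, and 23 and 25. In the Ext1 and Samd12 window 46 members were called as 11 and 10, 40 and 36, 4 and 6, and 30 and 22; Ext1 encodes a heparan sulfate polymerase. In all 6 most filled windows each LPS library called more members than each untreated library. These windows were chosen by their number of members, which peaks called only with LPS add to. The windows with 45 members did not keep this order. That of Ust and Sash1 had 20 and 23, 31 and 26, 11 and 17, and 17 and 12. That of Kidins220 and Id2 had 22 and 21, 36 and 31, 15 and 20, and 19 and 21. That of Asap1 and Adcy8 had 22 and 25, 18 and 13, 14 and 20, and 9 and 10.

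**Figure D3:**
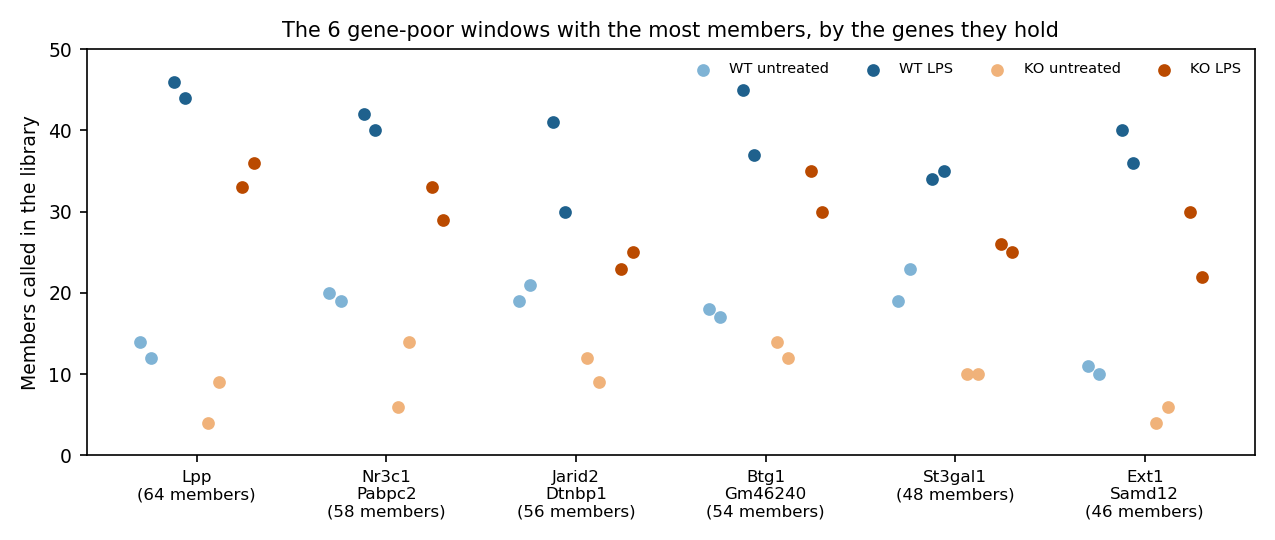
Members called per library (y axis) in the 6 gene-poor windows with the most members, named by the genes with their midpoint there (points are libraries, colours the 4 groups). In each window the 4 LPS libraries lie above the 4 untreated ones, and the KO libraries below the WT libraries of the same treatment.

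Windows with several LPS-dependent members held gains alone more often than losses alone. Among all members, shared gains also outnumbered shared losses, at 406 against 119. Windows outside the gene-poor set were not counted this way, and clustering by direction was not tested. Of 66 windows with at least 3 members that divided the LPS from the untreated libraries, 32 held gains only, 2 losses only and 32 both. Within 1 genotype most windows held both directions: of 140 such windows in WT 25 held gains only, 14 losses only and 101 both, and of 126 in KO 27, 10 and 89. Gains without a loss included 13 members in the Slco3a1 window, 11 in the Ext1 window and 10 in that of Marcks, a protein kinase C substrate that LPS is known to induce. The windows with losses only were nearest to Xylt1, with 5, and Sema6d, with 3. By nearest coding gene, at any distance, Lpp had the most members with 70, followed by Zeb2 with 57, Klf6 with 45, Adgrl2 with 44 and Id2 with 43. Zeb2 encodes a repressor that upholds macrophage identity, and 25 of its 57 members were gained and 0 lost with LPS in WT, 19 and 1 in KO. Its members lay at a median of 514 kb from the gene. The 36 members nearest Myc, a growth regulator, showed no such lean, with 7 gained and 5 lost in WT and 6 and 8 in KO. Asap1, an Arf GTPase regulator gene, leaned to loss, with 3 gained and 8 lost in WT and 1 and 7 in KO. Zfhx3, a homeodomain factor gene, had 0 gained and 5 lost in WT, and 0 and 1 in KO. The nearest gene is a label of position and need not be the gene a region acts on.

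Between genotypes fewer members were gained than lost in KO, whose peak lists were shorter. Without LPS 60 members were gained in KO, 1.52% against 1.24% of all autosomal regions not called in all 8 libraries, and 346 were lost, 8.76% against 10.3%. After LPS 84 were gained, 2.13% against 1.19%, and 380 lost, 9.62% against 11.6%. When each list kept its 44504 strongest peaks, gains numbered 132 and losses 117 without LPS, and 161 and 114 after LPS, so the excess of losses was gone. Each count also depended on single libraries. Without LPS the gains were 108, 99, 246 and 128 without WT untreated replicates 1 and 2 and KO untreated replicates 1 and 2, and the losses 672, 595 and 589 without WT untreated replicates 1 and 2 and KO untreated replicate 2. After LPS the gains were 157, 208 and 285 without WT LPS replicate 1 and KO LPS replicates 1 and 2, and the losses 615, 819 and 694 without WT LPS replicates 1 and 2 and KO LPS replicate 1. Under every alternative run for these counts the gained share of members was above that outside gene-poor windows and the lost share below it. After LPS these were 5.25% against 3.95% and 3.72% against 4.81% with equal numbers of peaks. Without LPS the gained shares were nearly equal in some settings. They were 2.65% against 2.64% without WT untreated replicate 2, and 1.37% against 1.32% with −log10 p of at least 20. All alternatives reuse the same libraries.

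The gains in KO after LPS were graded by gene number. They made up 3.34% of not-everywhere regions in windows with 0 genes (16 of 479, exact 95% interval 1.92 to 5.37%), 2.43% with 1 gene (38 of 1562, 1.73 to 3.32%), 1.57% with 2 (1.06 to 2.24%), 1.49% with 3 to 5, and 0.980, 1.04 and 1.05% in the richer classes. With equal numbers of peaks the order from 0 to 3 to 5 genes was 6.80, 5.54, 4.66 and 4.32%, and with −log10 p of at least 20 it was 2.52, 1.74, 1.30 and 1.09%. Without either KO LPS library or either WT LPS library the class with 0 genes had the highest share, from 4.497 to 11.5%. Gains in KO without LPS showed no such grading at the gene-poor end, at 1.46, 1.54, 1.52, 1.41, 1.41, 1.11 and 0.900% from the class with 0 genes to that above 20. Losses in KO after LPS ran the other way, from 8.14% with 0 genes through 9.48 and 10.1% to 12.8% above 20. By distance to a coding gene, the gained share of members was higher beyond 200 kb but did not increase at every step. Gains were 1.89% of members inside a gene, 1.12% within 10 kb of one, 1.31% at 10 to 50 kb, 1.98% at 50 to 200 kb, 3.11% at 200 to 500 kb and 4.69% beyond 500 kb (10 of 213). Outside gene-poor windows the shares were 1.11, 1.09, 0.994, 1.25, 1.52 and 8% (2 of 25) in the same order. A higher share far from genes was thus not particular to members. The median distance of the 84 gained members was 55.0 kb, against 18.1 kb for all members and 13.4 kb for the 380 lost ones. This grading was not tested, as calls chose the members.

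Regions were ranked by their mean percentile over all libraries that called them, so LPS libraries weigh in the rank of untreated differences. First among the untreated KO gains by that mean, a region 122 kb from Cog6, a Golgi complex gene (chr3:52859894-52860294), was at percentiles of 28.9 and 14.8 in KO untreated libraries, 70.5 and 75.9 in WT LPS and 76.8 and 77.7 in KO LPS, and was not called in WT untreated. One 81.9 kb from Trps1, which encodes a GATA-type repressor (chr15:50972529-50972953), was higher in the KO untreated libraries, at 62.3 and 62.9, with 41.0 and 25.8 in WT LPS, and 67.8 and 69.1 in KO LPS. First by the same mean among untreated KO losses, a region 47.3 kb from Id2, an inhibitor of basic helix-loop-helix factors (chr12:25143421-25143971), stood at 31.9 and 38.2 in WT untreated, below the Tbx5 region's 68.3 and 67.9, and was absent in KO untreated, while it reached 94.3 and 94.3 in WT LPS and 90.3 and 91.5 in KO LPS. Both the Cog6 and the Id2 region thus had higher percentiles with LPS than in the untreated libraries that set their genotype class.

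After LPS the KO gain with the highest mean, 84.1 kb from Stxbp5, a syntaxin-binding protein gene (chr10:9985372-9985795), stood at 68.2 and 54.9 in KO LPS and 29.7 in KO untreated replicate 2 and was absent from the other 5 lists. The next, 38.4 kb from Plpp3, a lipid phosphatase gene (chr4:105271206-105271582), was called in KO LPS alone, at 48.0 and 46.9. A region inside Mef2c, a MADS-box factor gene of myeloid cells (chr13:83571907-83572663), had the third highest mean among KO losses after LPS. It stood at 83.7 and 82.2 in WT untreated, 19.6 and 33.3 in WT LPS, and 64.7 and 81.1 in KO untreated, and was not called in KO LPS. In both genotypes the untreated libraries were thus the higher ones at this site.

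**Figure D4:**
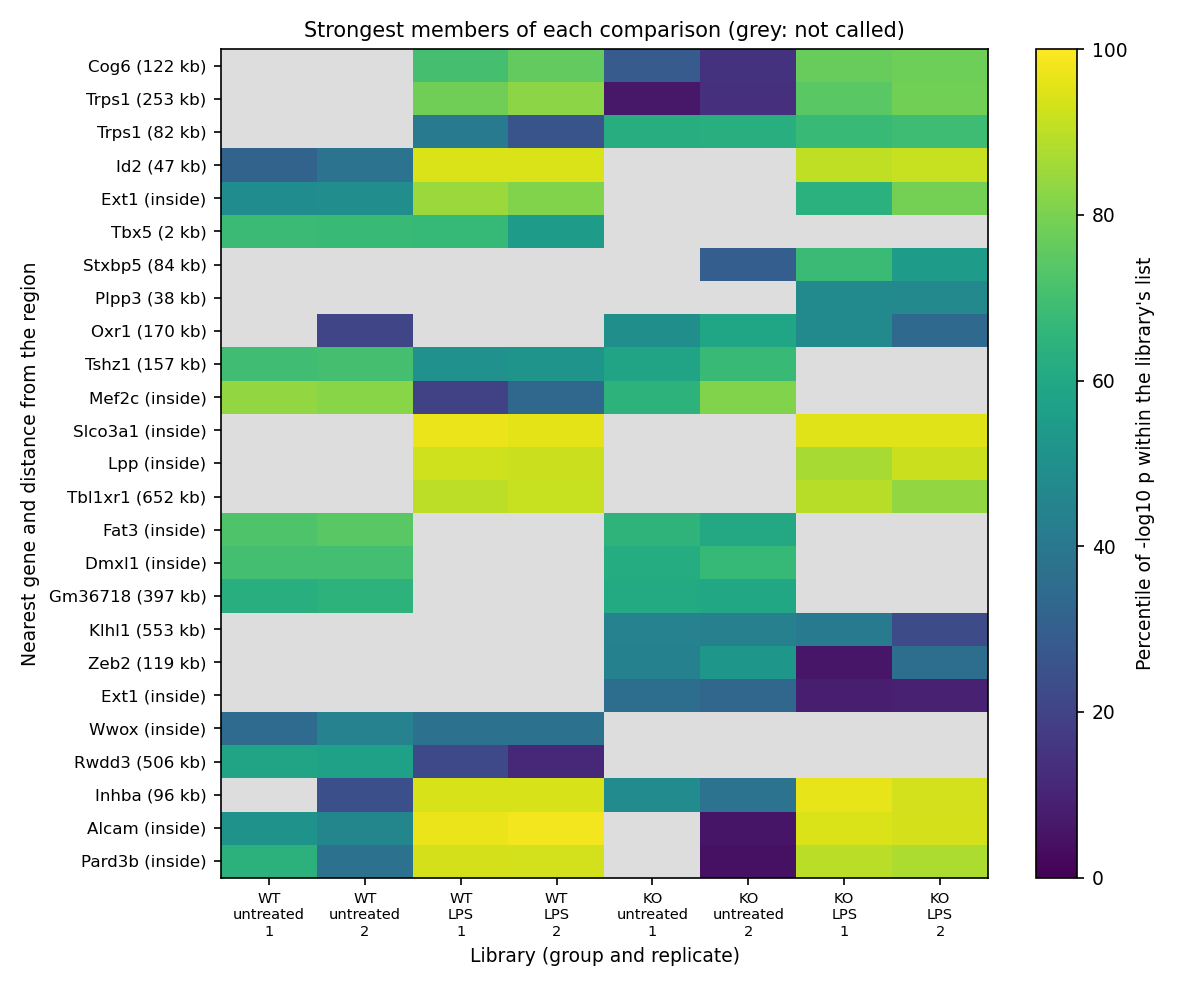
Percentile of −log10 p within each library's list (colour, 0 to 100; grey is not called) for the strongest members of each comparison and the strongest called in 7 libraries, labelled by nearest gene and distance. The Slco3a1, Lpp and Tbl1xr1 regions are called only with LPS, at 83.8 or more, and the Tbx5 region only in WT, at 55.3 or more.

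Members that divided all KO from all WT libraries were few: 6 were called in every KO library and no WT one, 0.152% against 0.114% of all autosomal regions not called in all 8 libraries, and 45 in every WT library and no KO one, 1.14% against 1.38%. With equal numbers of peaks they were 17 and 3. The gains became 17 and 10 without KO untreated replicates 1 and 2, and the losses 84 and 72 without WT LPS replicate 2 or KO untreated replicate 2. The strongest WT-only member, 2.09 kb from Tbx5, a heart and limb T-box factor gene (chr5:119887309-119887859), stood at 68.3, 67.9, 66.9 and 55.3 in the 4 WT libraries. The next were inside Wwox, an oxidoreductase gene, at 35.1 to 44.3, and 506 kb from Rwdd3 at 11.5 to 58.6. The KO-only members were nearest Klhl1 at 553 kb, with percentiles of 44.4, 43.5, 41.6 and 23.3, Zeb2 at 119 kb, Ext1 and Tshz2, both inside the gene, Nova1 at 1014 kb and Btg1 at 23.3 kb. Their mean percentiles were at most 38.2, lower than the 64.6 of the Tbx5 region but close to 38.8 for Wwox and 37.4 for Rwdd3. The median was 21.2 for the KO-only and 19.9 for the WT-only members. Only Ext1, Zeb2, Klhl1, Wwox, Rwdd3 and Tbx5 were named by rule, and the other KO-only members are given because they are so few. Around Lmna itself, 0 of these 6 and 0 of these 45 members lay within 20 Mb of it on chromosome 3, where 7 of the 3950 members lay; outside gene-poor windows 8 of 45 KO-only and 14 of 575 WT-only regions did.

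Listed genes with a member nearby included some macrophage regulators and a few inflammatory genes. A gene counted when a member lay inside it or within 50 kb, which held for 502 of 20665 protein-coding genes, or 2.43%. Of these 502, 38.05% had one gained and 29.5% one lost with LPS in WT, and 24.5% and 11.4% in both genotypes. Of 35 listed macrophage regulators 10 had a member (28.6%). Of the same 35, 8 had their midpoint in a gene-poor window, against 686 of the 20665 genes. How far the share with a member follows from where these genes lie was not tested. Among the 10 with a member, 6 had one gained and 5 one lost with LPS in WT. Mef2c had 8 members, of which 5 were lost and 0 gained with LPS in WT and 4 and 0 in KO. Zeb2 had 15, of which 7 were gained and 0 lost in WT and 3 and 0 in KO. Maf, a transcription factor gene of macrophages, had 1 member, gained in both genotypes. Tgfbr2, a TGF-beta receptor gene, had 10, with 2 gained and 0 lost in WT and 2 and 2 in KO, and Klf6 had 10, with 2 and 2 in WT and 1 and 0 in KO. Tcf4 had 19 members, 2 gained and 1 lost in both WT and KO. Mef2c and Zeb2 thus leaned to opposite sides within 1 list.

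Of 33 inflammatory genes 3 had a member (9.09%), and 1 of the 33 had its midpoint in a gene-poor window. Marcks had 4 members, 3 of them gained in both genotypes, and the chemokine genes Ccl2 and Ccl7, which neighbour each other and can share members, had 2 each, of which 1 was lost with LPS in KO. None of 22 matched interferon genes and none of 12 autosomal genes of the lamina and its tethers had one. No gene of these 2 lists had its midpoint in a gene-poor window, so the member rule left little room for a member nearby. Of 39 autosomal neuronal and adhesion genes chosen as typical of gene deserts, 35 had their midpoint in a gene-poor window and 19 had a member (48.7%). Pcdh7, a protocadherin gene, had 20 of the list's 70 members, 4 gained and 3 lost with LPS in WT and 5 and 1 in KO. Dlg2, a synaptic scaffold gene, had 5, with 1 and 0 in WT and 2 and 0 in KO. Cntnap2, a neurexin family gene, had 5, with 0 and 2 in WT and 0 and 1 in KO. Lrp1b, Cdh12 and Dcc each had 1 member that was gained in KO after LPS. That made 3 of 19 genes, against 7.37% of the 502, and was not tested. Other comparisons of these 19 genes went both ways. With LPS 4 had a gain in WT, against 38.05% of the 502, and 3 a gain in both genotypes, against 24.5%. A loss in KO after LPS was seen for 2, against 36.3%, and a loss with LPS in both genotypes for 4, against 11.4%.

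In form the members resembled other regions that were not called everywhere. Their median width was 320 bp against 324 bp outside gene-poor windows, and their median fold enrichment 5.59 against 5.30. Gene-poor regions called in all 8 libraries were wider, at 510 bp, and stronger, at 9.84-fold and a percentile of 62.4 against 19.4. Members called in 1 library only numbered 1114, 28.2% against 24.6% outside gene-poor windows, and members called in 7 made up 8.63% against 10.8%. Inside a protein-coding gene lay 42.8% of members against 59.2%, and 12.4% lay in lncRNA genes alone against 7.53%. Farther than 500 kb from any coding gene lay 213 members, 5.39%.

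Members called in 7 libraries included sites with higher percentiles with LPS. These were also called in 3 untreated libraries, so they fell outside the divided classes. A region 96.1 kb from Inhba, the activin A subunit gene (chr13:15907615-15908183), stood at 94.0 and 93.8 in WT LPS and 96.3 and 93.1 in KO LPS, at 48.1 and 38.2 in KO untreated and 24.4 in WT untreated replicate 2. One inside Alcam, an adhesion molecule gene (chr16:52292488-52293152), stood at 97.1, 98.2, 94.2 and 93.4 with LPS, at 51.1 and 46.0 in WT untreated and at 5.79 in 1 KO untreated library. One inside Pard3b, a cell polarity gene, ran from 87.7 to 93.6 with LPS and from 4.39 to 64.1 in the 3 untreated libraries that called it. In all 3 every LPS value was above every untreated value. The widest member, 1165 bp long and 82.9 kb from Marcks (chr10:37221860-37223024), was called at 74.8 and 58.8 in WT LPS and 50.04 and 46.2 in KO LPS only. The next widest, at the edge of Nrp1, a semaphorin receptor gene, was in 7 libraries at 1.04 to 40.2, highest in WT untreated replicate 2.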

How the data were processed

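Each of the 8 libraries had its own deposited peak list, in mm10 coordinates; the submitters' processing notes name BWA 0.7.12 and MACS2, and the filter behind the lists is not given in the sources used here. In the deposited lists the authors' peak caller gave each peak a fold enrichment (a ratio to local background), a −log10 p and −log10 q, and a deposited score; these values are the authors' own, and −log10 p set the percentiles. Each deposited list also gave summit offsets, which were not used. The lowest −log10 p was 7.35 to 7.93 by library. Read depth is unknown, so a missing call is not closed DNA.

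Peaks overlapping by at least 1 bp were merged and placed in 1 Mb windows by midpoint, with genes from RefSeq (GRCm38.p6; 20665 protein-coding genes on chromosomes 1 to 19). The X and Y chromosomes were left out. Regions were named by a rule: the 3 strongest by mean percentile in each of 6 comparisons and each direction, the 3 strongest and 3 widest in all, the 3 strongest called in 7 libraries, the 6 most filled windows, and listed genes with a member within 50 kb. The members and lists were chosen with earlier results of these data known. Libraries were compared with an exact permutation test, two-sided and within the other factor, 9 tests in all, with Benjamini-Hochberg adjustment. The functions were tested on simulated data. Alternatives were a −log10 p of at least 20, equal numbers of peaks (44504), windows shifted by 500 kb, gene-poor as at most 1 gene, peaks covering at least 50% of a region, a replicate block, and leaving out each library. Python 3.11.15, numpy 2.4.6, pandas 2.3.3 and scipy 1.17.1 were used.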

Additional observations from a re-analysis of the deposited data

How the results depend on the processing

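Of the differences between libraries in gene-poor windows, 114 alternative values kept their sign and 2 reversed: KO minus WT in percent of peaks was −0.0812 with −log10 p of at least 20, and KO minus WT in number of peaks was 79.3 with equal numbers of peaks. Of the counts of members, 79 stayed within 1.5 times and 33 did not. With −log10 p of at least 20, KO gains after LPS were 47 and losses shared by both treatments 25. With equal numbers of peaks, KO gains and losses were 132 and 117 without LPS, 161 and 114 after LPS, and 17 and 3 in both treatments. With windows shifted by 500 kb, gains in both treatments were 10. With each library left out in turn, the counts ranged from 484 to 650 (lost with LPS in WT), from 736 to 1016 (gained with LPS in KO), from 411 to 645 (lost with LPS in KO), from 99 to 246 (gained in KO without LPS), from 505 to 672 (lost in KO without LPS), from 119 to 285 (gained in KO after LPS), from 506 to 819 (lost in KO after LPS), from 124 to 179 (lost with LPS in both genotypes), from 6 to 17 (gained in KO in both treatments) and from 52 to 84 (lost in KO in both treatments). By construction a group with 1 library left asks for fewer matching calls.

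A replicate block, using the numbers the labels share across groups, left each difference as it was; the 16 arrangements allow no exact p below 0.125, the value for the LPS difference of 0.430 points in percent of peaks. Nothing in the labels says that a number marks a shared animal or day, and the deviations of same-numbered libraries from their group means correlated at −0.00636 to 0.00367 over pairs of groups, so the libraries were not treated as paired. With 2 libraries a group and no read counts, a count of members carries no error of its own.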
